A study of Mus musculus with 4 samples.

Results

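The genes described here encode 9 receptor chains through which CD4+ T cells sense cytokines of the IL-1 family (Il1r1, Il1r2, Il1rap, Il1rl1, Il18r1, Il18rap), IL-12 (Il12rb1, Il12rb2) and IL-25 (Il17rb). They were chosen by symbol, and all 9 were found once each among the 25509 genes of the table. RNA had been sequenced from 4 libraries, 2 of wild-type (WT) and 2 of Batf3-/- mouse T cells. Both genotypes had been treated alike: naive CD4+ cells sorted from spleen as CD25-, CD62L high and CD44 low were cultured for 72 h with TL1A, IL-4 and TGFb together with antibodies to CD3 and CD28. This cocktail drives cells towards TH9, the helper state named for the cytokine IL-9, and TL1A is a ligand of the TNF family. The labels give neither the strain, age and sex of the mice nor whether replicates came from separate mice or cultures. Each replicate number carries a code in the titles that both genotypes share, and its meaning is not given. The p-values of the main fit set the genotype difference against the spread between libraries of the same genotype. That spread holds any difference between replicate numbers, and it was estimated in part from other genes.

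Receptors of the IL-1 family carry a ligand-binding chain and an accessory chain, and both have a cytosolic TIR domain that recruits the adaptor MyD88 and leads to NF-kB. The IL-12 receptor is a cytokine receptor of another class: IL-12RB1 and IL-12RB2 bind the kinases TYK2 and JAK2 and activate STAT4. In helper T cells the IL-18 and IL-12 receptors are known from the TH1 state, and ST2 (encoded by Il1rl1, the IL-33 receptor) and the IL-25 receptor from type 2 responses. BATF3 is a basic leucine zipper factor that pairs with JUN proteins, and the comparison of genotypes asks which transcripts depend on it.

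Total counts ranged from 15624874 (Batf3-/- replicate 2) to 31098059 (Batf3-/- replicate 1). Batf3 itself stood at 61.7 and 60.5 CPM (the share of a library's counts scaled to a common total) in WT and at 0.535 and 0.517 CPM in Batf3-/- libraries, as the labels imply. Xist, the RNA of the inactive X chromosome, split the libraries by replicate number, at 0.214 and 0.0944 CPM in replicate 1 of WT and Batf3-/- and at 166 and 144 CPM in replicate 2. The cells of replicates 1 and 2 thus differed in sex in both genotypes, and the replicates of a genotype were not repeat libraries of the same cells. For the tested receptor genes, genotype ratios are therefore also given within each replicate number. T cell markers were abundant, with Cd4 at 474 to 552 CPM and Cd3e at 213 to 249 CPM. Of 6 neutrophil markers 5 were at 0 in all libraries, of 7 mast cell and basophil markers 5, of 6 B cell markers 2 and of 7 NK and innate lymphoid cell markers 3. The summed B cell markers reached 13.2 and 10.1 CPM in WT and 10.3 and 12.4 CPM in Batf3-/- libraries, nearly all of it Cd79b, with Ms4a1 at 0. The NK and innate lymphoid list summed to 74.1 and 93.1 CPM in WT and 62.4 and 94.8 CPM in Batf3-/- libraries, nearly all of it Rora, with Ncr1, Klrb1c and Klra8 at 0 and Eomes at 1 to 12 counts. The summed mast cell and basophil markers, mostly Kit, reached 4.37 and 2.37 CPM in WT and 1.73 and 4.59 CPM in Batf3-/- libraries. Over the libraries the stroma and endothelium list summed to 24.2 to 27.0 CPM. The CD8 T cell list summed to 7.30 to 9.08 CPM, nearly all of it Cd8b1, with Cd8a at 1 to 5 counts. The macrophage, monocyte and dendritic cell list, with 2 of 10 markers at 0 in all libraries, summed to 4.08 to 5.02 CPM. The part of these cells in the receptor values was not tested. Foxp3, the regulatory T cell factor, stood at 9.81 and 17.7 CPM in WT and 29.2 and 21.0 CPM in Batf3-/- libraries. Its log2 fold change (Batf3-/- minus WT) was 0.87, at an adjusted p of 0.593 in edgeR. Of the 7 regulatory T cell markers listed, 5 had positive values, with a median of 0.35 over the 7. Ctla4 (-0.16) and Il2ra (-0.09) had negative values. The genotypes did not overlap for 3 of the 7, Foxp3 among them. Of all tested genes 33.8% did not overlap and 48.4% had positive values. Within replicate 1 the log2 ratio of Foxp3 was 1.57 and within replicate 2 it was 0.25. The part of regulatory T cells in the receptor values was not tested. In such bulk RNA, fewer cells of a type and less RNA per cell cannot be told apart.

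None of the receptor genes passed the test between genotypes. Of the 9 genes 8 had enough counts to be tested, and 0 of these 8 passed at an adjusted p of 0.05 in edgeR, where 0.132% of all 12135 tested genes passed (0.0824% higher and 0.0494% lower in Batf3-/-). The smallest adjusted p among the 8 was 0.958, and 0 of the 8 had an unadjusted p under 0.05, against 4.8% of all tested genes in edgeR. Neither DESeq2 nor limma-voom gave any of the 8 an unadjusted p under that value. The 6 genes of the IL-1 receptor family had negative and the 2 IL-12 receptor genes positive log2 fold changes (Batf3-/- minus WT), with a median of -0.31 over the 8 against -0.01 over all tested genes. The libraries of the genotypes did not overlap for 5 of the 8, namely Il1rl1, Il1rap and Il18r1 (lower) and Il12rb1 and Il12rb2 (higher). Over all tested genes 33.8% were separated in this way, 15.6% lower and 18.2% higher. The median size of the log2 fold change was 0.36 for the 8 and 0.18 for all tested genes, beside a median standard error of 0.27 and 0.22. With 2 libraries against 2, an exact permutation test of a single gene cannot go below a two-sided p of 0.333.

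**Figure D1:**
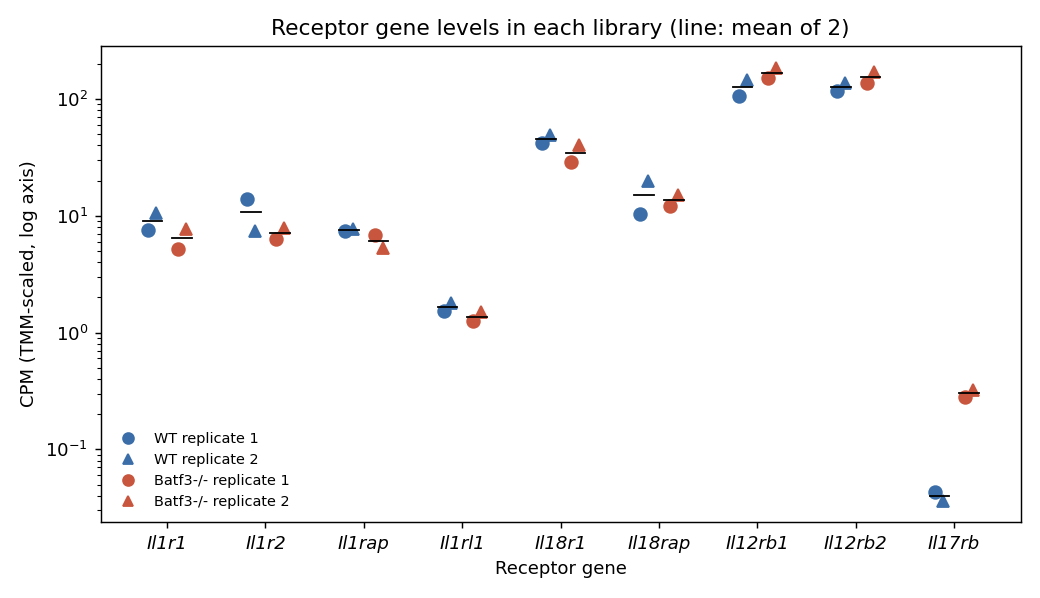
TMM-scaled CPM (log axis) of the 9 receptor genes in each library, with circles for replicate 1, triangles for replicate 2 and a line at the mean of 2. Il12rb1 and Il12rb2 lie above 100 CPM in all libraries, Il1rl1 between 1.26 and 1.79 CPM, and Il17rb below 0.4 CPM.

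Levels can be compared between genes only per length, so CPM was divided by the length of each gene's longest annotated transcript. On that scale Il12rb1 (37.0 to 64.6 CPM per kb over the 4 libraries) and Il12rb2 (39.2 to 56.5) stood first and overlapped. Il18r1 (6.93 to 11.9 CPM per kb) and Il1r2 (4.43 to 9.84) followed and also overlapped. Il18rap lay below both at 2.11 to 4.05 CPM per kb. Il1rap (1.17 to 1.70 CPM per kb) and Il1r1 (0.897 to 1.82) overlapped each other, then came Il1rl1 at 0.237 to 0.337 and Il17rb at 0.0142 to 0.126 CPM per kb. With the summed exon length in place of the longest transcript, Il12rb2 moved ahead of Il12rb1 and Il1r1 ahead of Il1rap, and the other ranks did not move. The IL-12 receptor chains Il12rb1 and Il12rb2 thus had the highest values of these genes, and Il1rl1 and Il17rb the lowest, in both genotypes. The rank of Il12rb2 is less sure, because its reads were divided with Serbp1, an overlapping gene on the opposite strand.

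Il1r1 (chromosome 1, 40225080 to 40317257, GRCm38, plus strand, protein coding) encodes the signalling receptor for IL-1 alpha and IL-1 beta. It had 175 and 291 counts in WT replicates 1 and 2 and 166 and 118 counts in Batf3-/- replicates 1 and 2. Scaled for depth these became 7.50 and 10.6 CPM against 5.22 and 7.63 CPM. Batf3-/- replicate 2 lay just above WT replicate 1, so the genotypes overlapped. The means were 9.05 ± 2.19 and 6.42 ± 1.70 CPM (SD, n = 2 each). The log2 fold change was -0.53 (SE 0.29, 95% interval -1.12 to 0.07, adjusted p = 0.958, edgeR). Replicate 1 gave a log2 ratio between genotypes of -0.52 and replicate 2 of -0.47, and replicate 2 exceeded replicate 1 by 0.50 in WT and 0.55 in Batf3-/- cells. The shift between replicate numbers was thus as large as the genotype difference for this gene. Omitting Batf3-/- replicate 2 gave a log2 fold change of -0.79, and omitting either Batf3-/- replicate 1 or WT replicate 2 gave -0.25.

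Il1r2 (chromosome 1, 40074079 to 40125231) encodes the decoy receptor, which binds IL-1 but lacks the TIR domain. It had 326 and 203 counts in WT and 200 and 122 counts in Batf3-/- libraries. WT replicate 1 carried 14.0 CPM but WT replicate 2 only 7.40 CPM, against 6.29 and 7.89 CPM in the Batf3-/- libraries. WT replicate 1 alone stood high, and the other 3 libraries lay within 6.29 to 7.89 CPM. The log2 fold change was -0.60 (SE 0.30, 95% interval -1.23 to 0.03, adjusted p = 0.958, edgeR), and the means were 10.7 ± 4.65 and 7.09 ± 1.13 CPM (SD, n = 2 each). Within replicate 1 the log2 ratio was -1.15 and within replicate 2 it was 0.09. The difference all but vanished on omission of WT replicate 1 (log2 fold change -0.09). On omission of WT replicate 2 it passed at -0.996 (adjusted p = 0.0215, edgeR), in a fit with 1 WT library that called 553 of 12391 genes.

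Il1rap (chromosome 16, 26581704 to 26730117), the accessory chain shared by the receptors for IL-1 and IL-33, had 174 and 211 counts in WT and 216 and 82 counts in Batf3-/- libraries. The levels were 7.46 and 7.69 CPM in WT and 6.80 and 5.30 CPM in Batf3-/- cells. Both Batf3-/- libraries lay below both WT libraries (log2 fold change -0.31, SE 0.27, 95% interval -0.87 to 0.26, adjusted p = 0.958 in edgeR). The log2 ratios were -0.13 within replicate 1 and -0.53 within replicate 2. Without Batf3-/- replicate 1 the fitted difference was -0.51, without Batf3-/- replicate 2 it was -0.15, and correcting for GC content also brought it to -0.15. The annotation places an antisense gene, Gm20319, on the opposite strand, where it shares 552 exonic bases with Il1rap.

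Il1rl1 (chromosome 1, 40429570 to 40465415) encodes ST2, the IL-33 receptor, in membrane and soluble forms that a gene-level count does not separate. Only 36 and 49 counts were seen in WT libraries, against 40 and 23 in those of Batf3-/- cells. These are 1.54 and 1.79 CPM against 1.26 and 1.49 CPM, and edgeR gave a log2 fold change of -0.31 with an SE of 0.42 (adjusted p = 0.958). The 95% interval from -1.18 to 0.56 was the widest of the 8 genes, and it spans folds from 0.442 to 1.48. The Batf3-/- libraries lay below the WT libraries, by little. The log2 ratio was -0.30 in replicate 1 and -0.25 in replicate 2. The fitted value of -0.31 moved to -0.17 without Batf3-/- replicate 1, to -0.20 without WT replicate 2 and to -0.18 after the correction for GC content.

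Il18r1 (chromosome 1, 40465552 to 40500854), the ligand-binding chain for IL-18, had 979 and 1355 counts in WT and 916 and 620 counts in Batf3-/- libraries. Its levels were 42.0 and 49.4 CPM in WT and 28.8 and 40.1 CPM in Batf3-/- cells. The genotypes did not overlap, with Batf3-/- replicate 2 close under WT replicate 1. The means were 45.7 ± 5.25 and 34.4 ± 7.96 CPM (SD, n = 2 each), and the log2 fold change was -0.41 (SE 0.21, 95% interval -0.86 to 0.03, adjusted p = 0.958, edgeR). Replicates 1 and 2 taken singly gave log2 ratios of -0.54 and -0.30. Omission of Batf3-/- replicate 2 gave a log2 fold change of -0.66 and that of Batf3-/- replicate 1 one of -0.19.

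Il18rap (chromosome 1, 40515362 to 40551705), the accessory chain for IL-18, had 241 and 543 counts in WT and 387 and 235 counts in Batf3-/- libraries. The WT libraries, at 10.3 and 19.8 CPM, enclosed the Batf3-/- libraries at 12.2 and 15.2 CPM. The log2 fold change was -0.15 (SE 0.28, 95% interval -0.74 to 0.44, adjusted p = 0.973, edgeR). Its direction turned with the replicate, with log2 ratios of 0.24 within replicate 1 and -0.38 within replicate 2. Omitting WT replicate 2 brought the log2 fold change to 0.40, and omitting WT replicate 1 to -0.55. Without Batf3-/- replicate 1 it was 0.01, without Batf3-/- replicate 2 it was -0.31, and after the correction for GC content it was -0.06.

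Il12rb1 (chromosome 8, 70808449 to 70821424) encodes the chain shared by the receptors for IL-12 and IL-23. It had 2481 and 4007 counts in WT and 4769 and 2871 counts in Batf3-/- libraries. The levels were 106 and 146 CPM in WT and 150 and 186 CPM in Batf3-/- cells. Batf3-/- replicate 1 lay just above WT replicate 2, so the genotypes were separate by a small gap. The means were 126 ± 28.1 and 168 ± 25.1 CPM (SD, n = 2 each), at a log2 fold change of 0.41 (SE 0.20, 95% interval -0.02 to 0.84, adjusted p = 0.958, edgeR). Replicate 1 alone gave a log2 ratio of 0.50 and replicate 2 one of 0.35. The gene passed at 0.66 on omission of WT replicate 2 (adjusted p = 0.0369, edgeR), but stood at 0.19 when WT replicate 1 was omitted and at 0.25 when Batf3-/- replicate 2 was. Its longest transcript has a GC content of 58.4%, against 42.1% to 49.5% for the other 8 receptor genes and a median of 49.8% over tested genes. After the correction for GC content its log2 fold change was 0.16 (SE 0.18).

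Il12rb2 (chromosome 6, 67291318 to 67376188) encodes the IL-12-specific signalling chain. It had 2744.92 and 3735.02 counts in WT and 4328.14 and 2620.19 counts in Batf3-/- libraries. The levels were 118 and 136 CPM in WT and 136 and 169 CPM in Batf3-/- cells, so Batf3-/- replicate 1 all but met WT replicate 2. The log2 fold change was 0.27 (SE 0.19, 95% interval -0.14 to 0.67, adjusted p = 0.958, edgeR), with 0.21 within replicate 1 and 0.32 within replicate 2. It was 0.10 without Batf3-/- replicate 2, 0.16 without WT replicate 1 and 0.42 without Batf3-/- replicate 1. The fractional counts show that reads were divided between genes. Serbp1, an abundant RNA-binding protein gene on the opposite strand, shares 1519 exonic bases with Il12rb2, and it had 15622.08, 23576.98, 25546.86 and 12435.81 counts in the same order of libraries. The counts of the 2 genes added up to the whole numbers 18367, 27312, 29875 and 15056 to the second decimal, so the split of their shared reads makes the Il12rb2 level uncertain.

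**Figure D2:**
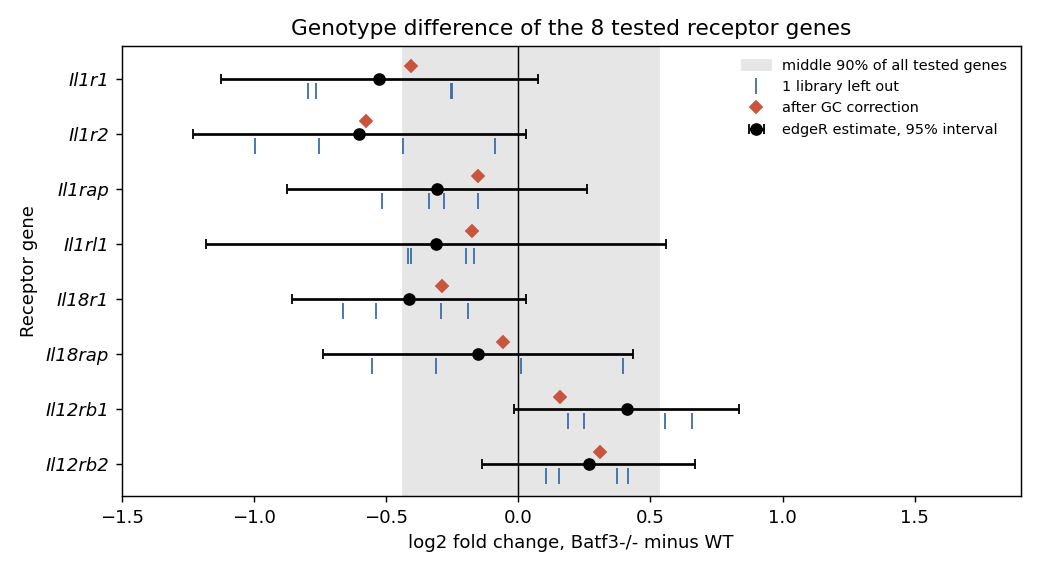
Log2 fold change (Batf3-/- minus WT) of the 8 tested receptor genes with its 95% interval from edgeR, the values with 1 library left out and the value after GC correction. All 8 intervals cross 0, and the GC correction moves Il12rb1 from 0.41 to 0.16.

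Il17rb (chromosome 14, 29996135 to 30008896, minus strand), the IL-25-binding chain, lay near the detection limit and was not tested in the main fit. It had 1 count in each WT library and 9 and 5 counts in Batf3-/- replicates 1 and 2. A floor of 3 counts corresponds to 0.129 and 0.109 CPM in WT and 0.0944 and 0.194 CPM in Batf3-/- libraries, and Il17rb stood at 0.283 and 0.323 CPM in the latter. Both Batf3-/- libraries thus lay above their floor and both WT libraries below it. The summed counts of 14 against 2, scaled for depth, gave a ratio of 7.52 with an exact Poisson 95% interval of 1.73 to 68.2, which covers counting error only. With no filter on low counts edgeR gave a log2 fold change of 2.76 (SE 1.12, unadjusted p = 0.0211, adjusted p = 0.878), a fitted value that depends on the prior count. Actr8, on the opposite strand, shares 141 exonic bases with Il17rb and had 521 and 658 counts in WT and 836 and 435 counts in Batf3-/- libraries.

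Promoter sequence was searched because BATF3 binds AP-1 sites as a dimer. RefSeq windows (GRCm38.p6) were found for 8 of the 9 genes, all but Il12rb1, with 12 start sites in all, some of them close enough for their windows to overlap, and the 250 bases before each start were read. The AP-1 motif TGANTCA, which reads the same on both strands, occurred in 1 of the 12 windows, that of Il17rb, and in 6.75% of 32851 windows of the same length over all genes. It starts 104 bases before the Il17rb start, as TGAGTCA. The stretches shown are that around the Il17rb match, in capitals, and, for contrast, the 100 bases before the start of the abundant genes Il12rb2 and Il18r1 (its first start). They are chr14:30008934-30009060 (minus strand), chr6:67376189-67376288 (minus strand) and chr1:40465452-40465551 (plus strand).
Il17rb: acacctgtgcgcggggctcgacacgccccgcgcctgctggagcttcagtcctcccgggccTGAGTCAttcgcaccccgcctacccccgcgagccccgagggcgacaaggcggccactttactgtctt
Il12rb2: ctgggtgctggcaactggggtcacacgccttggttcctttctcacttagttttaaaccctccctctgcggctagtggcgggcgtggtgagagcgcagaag
Il18r1: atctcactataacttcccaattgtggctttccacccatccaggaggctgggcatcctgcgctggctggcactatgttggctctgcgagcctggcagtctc
A match describes these letters only and is not a site, and no match says only that these letters are not in the window. The STAT motif TTCNNNGAA, the kind of site bound by factors such as STAT4 and STAT6, occurred in 3 of the 12 windows (Il1r2, the third start of Il18r1 and Il12rb2) and in 7.02% of all windows. The GATA motif AGATAA, searched on both strands, occurred in both windows of Il1rl1 and in 9.99% of all windows.

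The receptor genes on chromosome 1 form a cluster. Il1r2, Il1r1, Il1rl1, Il18r1 and Il18rap lie in that order within 478 kb, together with Il1rl2, which encodes the IL-36 receptor, and the cluster ends 151 Mb before Batf3 on the same chromosome. All 6 cluster genes were tested, and all 6 had negative log2 fold changes, from -0.60 to -0.15, with a median of -0.36 and 0 passing in edgeR. After GC correction Il1r2, Il1r1, Il1rl1, Il18r1 and Il18rap were less negative, at -0.57, -0.41, -0.18, -0.29 and -0.06. Il1rl2 stood at -0.20 (SE 0.32), its WT libraries holding 77 and 108 counts and its Batf3-/- libraries 99 and 50. The 7 tested genes within 1 Mb on either side had 5 positive and 2 negative values, from -0.34 to 0.15, with a median of 0.03. Over all tested genes 48.4% of log2 fold changes were positive.

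The plot of genotype ratios by replicate number sets the 2 ratios of each gene side by side. For Il1r1, Il1rl1, Il18r1 and Il1rap both ratios were negative, and for Il12rb1 and Il12rb2 both were positive. Il1r2 and Il18rap changed sign between the replicate numbers. Differences between replicates of 1 genotype were of like size. Their median over the 8 receptor genes was 0.35 (log2) in WT and 0.32 in Batf3-/- libraries, against 0.29 and 0.19 over all tested genes. These medians ignore direction. Replicate 2 exceeded replicate 1 in both genotypes for Il1r1, Il1rl1, Il18r1, Il18rap, Il12rb1 and Il12rb2, by 0.21 (Il1rl1 in WT) to 0.94 (Il18rap in WT). For Il1r2 (-0.92 in WT, 0.33 in Batf3-/-) and Il1rap (0.04 and -0.35) the sign differed between genotypes. The cause of these shifts was not tested.

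**Figure D3:**
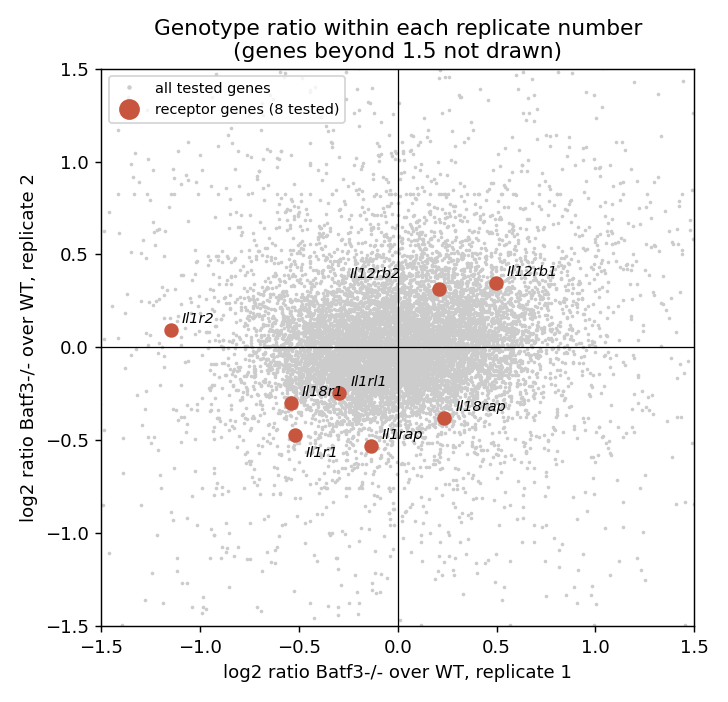
Log2 ratio of Batf3-/- over WT within replicate 1 (horizontal) and within replicate 2 (vertical) for all tested genes within 1.5 (grey) and the 8 tested receptor genes (red). Il12rb1 and Il12rb2 lie in the upper right, Il1r1, Il1rl1, Il18r1 and Il1rap in the lower left, and Il1r2 and Il18rap off the diagonal.

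Ratios of 2 genes within a library do not depend on depth or scaling, but effects of GC content that differ between libraries can remain in them. They show which receptor chains shift against each other in the counts. There were 1.86 counts of the decoy Il1r2 per count of the signalling Il1r1 in WT replicate 1 (exact binomial 95% interval 1.55 to 2.25, counting error only) but 0.698 in WT replicate 2 (0.580 to 0.837). The Batf3-/- libraries, at 1.205 (0.976 to 1.49) and 1.03 (0.796 to 1.34), lay between the WT libraries. The balance of decoy and signalling receptor therefore differed more between the 2 WT libraries than between genotypes.

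The Il18rap to Il18r1 ratio was 0.246 in WT replicate 1 (0.213 to 0.284), against 0.401 in WT replicate 2 and 0.422 and 0.379 in Batf3-/- replicates 1 and 2. WT replicate 1 stood apart from the other 3 libraries beyond counting error. Replicates also differed far beyond counting error over all genes, with a chi-square per degree of freedom of 66.3 in WT and 24.0 in Batf3-/-. Ratios of gene pairs outside the receptors were not computed. The Il12rb2 to Il12rb1 ratio, uncertain through the reads shared with Serbp1, also set WT replicate 1 apart, at 1.11 (1.05 to 1.17). It was 0.932, 0.908 and 0.913 in WT replicate 2 and Batf3-/- replicates 1 and 2. These ratios were not corrected for GC content. That correction put the fitted log2 fold change of Il12rb2 (0.31) above that of Il12rb1 (0.16), the reverse of the order before it (0.27 and 0.41). For Il1rap over Il1r1 the Batf3-/- replicates differed beyond counting error, at 1.30 (1.06 to 1.60) and 0.695 (0.518 to 0.929). The WT replicates, at 0.994 (0.801 to 1.23) and 0.725 (0.604 to 0.869), lay in the same order with counting intervals that overlap. The Il1rl1 to Il18r1 ratio was 0.0368 and 0.0362 in WT and 0.0437 and 0.0371 in Batf3-/- libraries, with counting intervals that overlap.

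**Figure D4:**
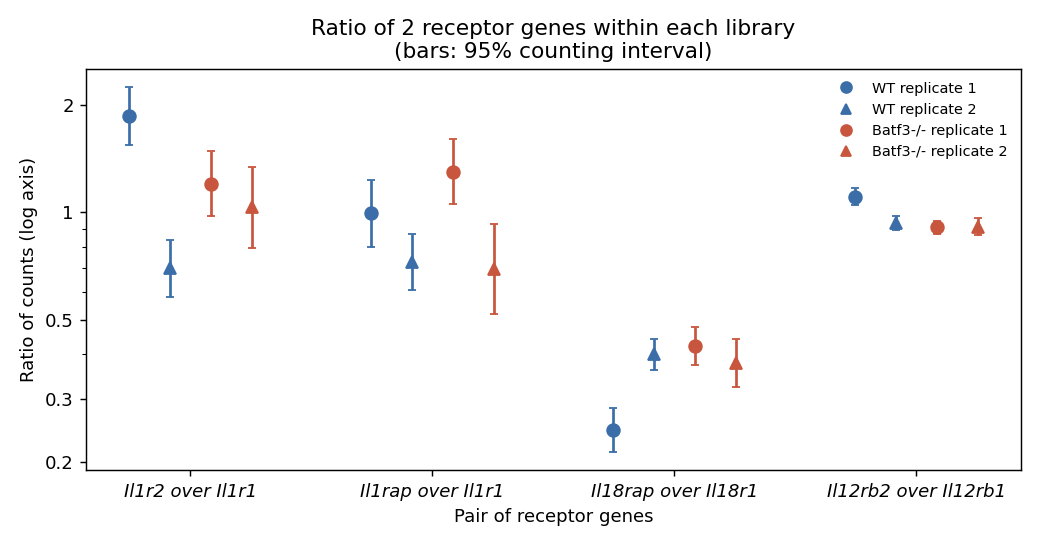
Ratio of the counts of 2 receptor genes in each library (log axis) with 95% exact binomial counting intervals, circles for replicate 1 and triangles for replicate 2. WT replicate 1 is highest for Il1r2 over Il1r1 at 1.86 and lowest for Il18rap over Il18r1 at 0.246.

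Genes whose pattern over the 4 libraries was most like that of a receptor gene were found by the mean absolute difference of centred log2 CPM over 9786 other genes that averaged 2 or more in log2 CPM. For Il1r2, which varied most of the 8 tested receptor genes (1.15 log2 units from lowest to highest), the nearest were Sepp1, a selenoprotein gene (0.02), and Mpzl2, an adhesion molecule gene (0.05). For Il1r1 (range 1.02) they were Il1rn, the gene of the IL-1 receptor antagonist (0.02), and H2-T24, an MHC class I-like gene (0.05). Il18rap (range 0.94) was nearest to Utp20 and Zfp609 (0.05 each). Within 0.1 lay 11 genes for Il1r2, 19 for Il1r1 and 27 for Il18rap, and from 136 (Il18r1) to 825 (Il1rl1) for the other 5 tested receptor genes, which varied less. Among the receptor genes themselves the closest pairs were Il1r1 with Il18r1 (0.08), Il1rl1 with Il18r1 (0.10) and Il12rb1 with Il12rb2 (0.10).

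Among ligands and inhibitors of the IL-1 family, Il1rn and Il1a had the most counts in these cultures. The table lists 11 such genes. Of these, 6 were at 0 in all libraries, Il18 among them, and 3 were tested, of which 0 passed in edgeR (median log2 fold change -0.48, 1 of 3 positive). Il1rn counts were 809 and 1352 in WT against 805 and 547 in Batf3-/- libraries (log2 fold change -0.48, SE 0.23). Il1a, which encodes IL-1 alpha, varied from 81 to 435 counts in WT and from 58 to 212 in Batf3-/- libraries, so its genotypes overlapped (log2 fold change -0.86, SE 0.92). Il18bp, the soluble IL-18 inhibitor, stood at 0.00 (SE 0.48). Il33 had 2 counts in Batf3-/- replicate 1 and 0 elsewhere, and Il1b had 2 counts in WT replicate 2 and 1 in Batf3-/- replicate 2. Sigirr, a TIR-domain inhibitor of the family, stood at 0.29 (SE 0.18), and its Batf3-/- libraries lay above both WT libraries.

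Of 20 tested MyD88 pathway genes 0 passed in edgeR, and 7 had positive values (median -0.11). Irak3, which restrains this pathway, had the smallest p, with counts of 21 and 54 in WT against 19 and 7 in Batf3-/- libraries. Its log2 fold change was -1.41 (SE 0.55), and its adjusted p was 0.872 in edgeR. Ube2n, an E2 ubiquitin enzyme, stood at -0.37 (SE 0.19) and Peli2, an E3 ligase, at 0.81 (SE 0.46). The adaptor gene Myd88 stood at 0.10 (SE 0.20).

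Of 5 tested genes for IL-12 family ligands and further receptor chains 0 passed in edgeR, and 4 were positive (median 0.32). Il27ra, the IL-27 receptor gene, stood at 0.34 (SE 0.19), Ebi3, a subunit of IL-27, at 0.32 (SE 0.21), and Il6st, the gp130 gene, at -0.26 (SE 0.21). Il12a, the p35 subunit gene of IL-12, stood at 0.01 (SE 0.28), and Il12b was at 0 in all libraries. Il23r, whose product joins IL-12RB1 to bind IL-23, was at 0 in WT, against 1 and 4 counts in Batf3-/- replicates 1 and 2. Of the 6 tested JAK and STAT genes that IL-12 receptors use 0 passed and 1 was positive (median -0.12). Jak2 stood at -0.19 (SE 0.20), Tyk2 at 0.14 (SE 0.19) and Stat4 at -0.13 (SE 0.19).

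For IL-25, the ligand gene Il25 was at 0 in all libraries. Il17ra, the chain that pairs with IL-17RB, stood at 0.03 (SE 0.20) with 1033 and 1375 counts in the WT libraries against 1404 and 815. Of 6 tested IL-17 receptor chain and adaptor genes 0 passed in edgeR and 6 were positive (median 0.10). Il17re, another receptor chain, stood at 0.50 (SE 0.68), Traf2 at 0.14 (SE 0.20) and Traf5 at 0.15 (SE 0.27).

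Genes known as targets of these receptors in T cells were counted too. Of 10 tested genes downstream of IL-12 or IL-18 0 passed in edgeR and 7 were positive (median 0.30). Those with the smallest p were Furin, a proprotein convertase gene, at 0.46 (SE 0.22), Gadd45g at 0.39 (SE 0.19) and Gzmb, granzyme B, at 0.36 (SE 0.19). The negative ones were Tbx21 at -0.55 (SE 0.57), Ccl4 at -0.55 (SE 0.72) and Irf1 at -0.18 (SE 0.20). Within replicates 1 and 2 the log2 ratios of Tbx21 were 0.75 and -1.15. These values are without GC correction, and the GC content was 55.9% for Furin and 59.9% for Gadd45g. Ifng, the main product of IL-12 and IL-18 signalling, was near 0 throughout, at 3 and 10 counts in WT against 1 and 0 in Batf3-/- libraries. Of 11 tested genes downstream of IL-33, IL-25 or IL-1 0 passed in edgeR and 4 were positive (median -0.06). Il9 stood at -0.57 (SE 0.23), Il4 at -0.46 (SE 0.27) and Gata3 at 0.29 (SE 0.20). The log2 ratios within replicates 1 and 2 differed, at -0.07 and -1.01 for Il9. They were -0.73 and -0.11 for Il4 and 0.57 and 0.01 for Gata3.

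**Figure D5:**
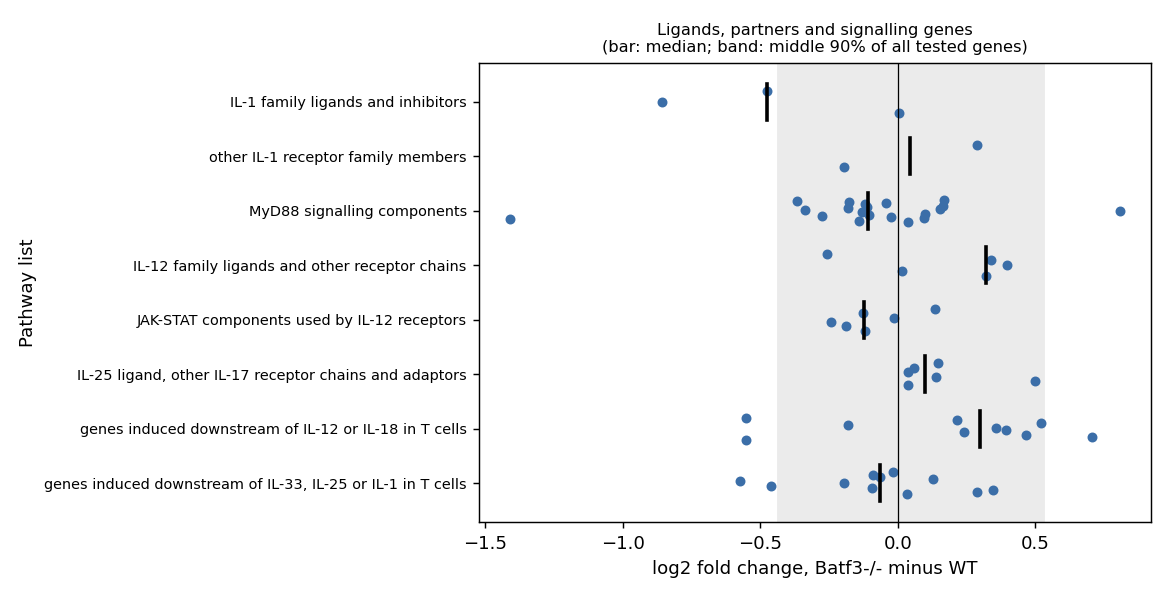
Log2 fold change (Batf3-/- minus WT) of each tested gene in 8 lists of ligands, partner chains, signalling components and target genes, with a bar at each list's median and a band for the middle 90% of all tested genes (-0.44 to 0.53). Irak3 lies farthest out at -1.41, and no gene of these lists passed the test.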

How the data were processed

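The deposited table holds expected counts per gene, which are not scaled for depth or length. They were made by the authors with RSEM 1.2.25 after STAR 2.5.0, build GRCm38, per the submitters' processing notes. Neither annotation release nor strand setting is given in the sources used here. The 92 spike-in entries, 0 in all libraries, were left out. Counts were rounded for the models. The test was that of edgeR 4.0.16 under R 4.3.3 (filterByExpr: a minimum count of 10 and a minimum total of 15, TMM, glmQLFit with robust estimates, glmQLFTest, genotype as the only term, two-sided, Benjamini-Hochberg adjustment over 12135 genes). Log2 ratios used a prior count of 0.5. Replicates differed far beyond sampling noise, with a chi-square per degree of freedom of 66.3 in WT and 24.0 in Batf3-/-. Alternatives were DESeq2 1.42.0, limma-voom 3.58.1, other scaling and filters, leaving out each library, a GC correction and the replicate number as a block. The pipeline was tested on simulated data. Positions, lengths and GC content came from GENCODE M21. The receptor genes and lists were chosen with earlier results of these data known. Beside the receptor genes, Batf3 and Xist were named as checks. Up to 3 genes per list with the smallest p were named, or those that pair with a receptor. Other genes were named after their values were seen.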

Additional observations from a re-analysis of the deposited data

How the results depend on the processing

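In all 12 alternatives the 8 tested receptor genes gave 96 values, of which 91 kept their direction and their side of the threshold, 3 turned direction and 2 passed. All 3 turns were of Il18rap, whose log2 fold change was 0.40 without WT replicate 2 and 0.01 without Batf3-/- replicate 1, in a range from -0.55 to 0.40 with 1 library left out, and 0.039 with the replicate block together with the GC correction. The 2 that passed were Il1r2 and Il12rb1 without WT replicate 2. Over all genes, the 10 higher and 6 lower calls became 11 to 301 higher and 7 to 252 lower with 1 library left out, the most without WT replicate 2. Such fits assume that the lone library of a genotype varies like the other genotype. DESeq2 called 21 genes higher. With the replicate block 81 genes were higher and 31 lower, and with the block and the GC correction 55 and 33, with 0 of the 8 receptor genes passing in either edgeR fit (3 and 2 of them had an unadjusted p under 0.05). Both block fits had an infinite median of prior degrees of freedom, so most genes' p-values made no allowance for their own spread being poorly known. Both genotypes share a title code for each replicate number, and Xist split the libraries by the same number. The labels do not say that the code marks shared animals or days, and deviations of same-numbered libraries from their group means correlated at 0.105 over 12135 genes. The causes of these shifts were not tested. No alternative moved the median log2 fold change of all genes by over 0.1. The scaling holds this median near 0 in every fit, so it cannot show whether the results are stable. Depth limits Il1rl1 and Il17rb most, with 23 to 49 and 1 to 9 counts per library.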
